A study of Mus musculus with 20 samples.

Results

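The RecQ helicases of the mouse are encoded by 5 genes, Recql, Recql4, Recql5, Blm and Wrn. Their mRNA was followed by RNA-seq in p19/Nras cells, a murine liver cancer line, with and without Trim33. The genes were chosen by symbol, and all 5 were found among the 13107 genes of the Myc experiment and among the 11210 genes of the HU experiment. The choice used no limit on measured values, though it was made with earlier results of these data known. The filter on low counts removed 0 genes in either experiment.

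RecQ helicases use ATP to unwind DNA at stalled or broken replication forks, in recombination intermediates and in unusual DNA structures. Blm works with Top3a, Rmi1 and Rmi2 to separate joined DNA molecules without crossing over, and Wrn carries an exonuclease beside its helicase. Recql promotes the restart of reversed forks, Recql4 takes part in the start of replication, and Recql5 binds RNA polymerase II. Inherited loss of the human counterparts of Blm, Wrn and Recql4 causes Bloom, Werner and Rothmund-Thomson syndromes. Trim33 is a chromatin-bound ubiquitin ligase, and the study asked how its loss and an extra supply of Myc bear on replication under stress.

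All cells came from a liver tumour raised by Nras in mice without p19/Arf, so that background was common to every group. In the Myc experiment, Trim33-WT cells and the CRISPR lines Trim33-KO1 and Trim33-KO2 each carried a Ctrl vector or a Myc vector, which gave 6 groups of 2 libraries. In the HU experiment, cells with and without Trim33 were kept as controls (vehicle) or given 1 mM hydroxyurea (HU), which starves forks of nucleotides, for 4 h, which gave 4 groups of 2 libraries. The labels of the HU experiment do not say which knockout line was used. The labels do not say whether the 2 libraries of a group came from separate cultures, so the p-values measure the spread between these libraries, which may be technical. Each knockout line stands for 1 editing outcome, and in such bulk RNA fewer expressing cells and less RNA per cell cannot be told apart.

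The Myc experiment had 14753177 to 17949430 counts per library, and the HU experiment 2315327 to 3082202. Trim33 itself, as TMM-scaled CPM (counts scaled to the library total), stood at 246 and 258 in the WT Ctrl libraries, at 123 and 130 in KO1 Ctrl and at 201 and 207 in KO2 Ctrl. Under the Myc vector it went against the labels, as the libraries labelled WT Myc held 131 and 155 CPM, less than the 185 and 193 CPM of KO1 Myc. Those labelled KO1 Myc were also nearer to KO2 Ctrl than to KO1 Ctrl, and those labelled KO2 Myc (124 and 125 CPM) nearer to KO1 Ctrl. Itgb4, a neighbour of Recql5, did the same, with means of 5.02 CPM in KO1 Ctrl and 6.73 CPM in KO2 Myc beside 22.0 CPM in KO2 Ctrl and 23.4 CPM in KO1 Myc. Myc mRNA was not called in the libraries labelled WT Myc against WT Ctrl (log2 0.07, adjusted p = 0.31), but rose by 1.73 in those labelled KO1 Myc and by 1.16 in those labelled KO2 Myc against the Ctrl groups of the same name. The labels of the Myc vector libraries, or those of KO1 Ctrl and KO2 Ctrl, may thus be exchanged, which these data do not settle. Every comparison with them stands as labelled, also where KO1 and KO2 are told apart. In the HU experiment Trim33 mRNA was at 125 to 142 CPM in the 4 WT libraries and at 43.8 to 52.2 CPM in the 4 KO libraries. The libraries labelled WT Myc also stood apart in their spread, which was 11.1 times the counting noise against 2.21 to 4.53 times in the other 9 groups. Of 7 hepatocyte markers only Afp was in the tables, and it moved with the groups. It was higher in KO2 Ctrl than in KO1 Ctrl, but lower under the label KO2 Myc than under KO1 Myc. It was at 30.2 to 33.0 CPM in WT Ctrl, 0.798 to 0.920 CPM in KO1 Ctrl and 8.13 to 8.56 CPM in KO2 Ctrl, and under the Myc vector at 19.5 to 25.1 CPM (WT), 2.53 to 3.55 CPM (KO1) and 0.221 to 0.297 CPM (KO2). The 4 mesenchymal markers summed to 6274 to 6444 CPM in WT Ctrl, to 8106 to 8298 CPM in KO1 Ctrl (3 of 4 called higher) and to 4884 to 5114 CPM in KO2 Ctrl (3 of 4 called lower). The keratins Krt8, Krt18 and Krt19 summed to 4140 to 4306 CPM in WT Ctrl, and 2 of the 3 were called lower in each knockout line. In the HU experiment Afp was at 13.5 to 17.1 CPM in WT vehicle and 25.2 to 25.4 CPM in KO vehicle (not called), and 2 of the 3 keratins were called higher in KO vehicle. The part of these shifts in cell markers in the RecQ values was not tested. None of 3 leukocyte markers or 2 endothelial markers was in either table.

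The 5 genes share the ATP-binding loop of the helicase, the Walker A motif, and the stretch of coding sequence around it shows how far the members have drifted apart. Each line holds 36 bases of the coding strand in mm9, 5′ to 3′, with the codon of the ATP-binding lysine in capitals.
Recql: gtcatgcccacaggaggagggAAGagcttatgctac
Recql4: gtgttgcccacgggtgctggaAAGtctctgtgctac
Recql5: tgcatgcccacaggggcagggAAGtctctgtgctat
Blm: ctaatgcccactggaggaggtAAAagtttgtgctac
Wrn: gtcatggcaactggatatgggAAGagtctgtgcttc
All 5 genes lie on the minus strand. The Recql stretch is in exon 4 of 15 at chr6:142325326-142325361, with the lysine at codon 119. That of Recql4 is in exon 10 of 21 at chr15:76537551-76537586 (codon 525), and that of Recql5 in exon 2 of 19 at chr11:115792057-115792092 (codon 58). An intron cuts the other two at the same place of the stretch. Blm has it in exons 8 and 9 of 22, at chr7:87644639-87644651 and chr7:87642387-87642409 (codon 706). Wrn has it in exons 13 and 14 of 34, at chr8:34428018-34428030 and chr8:34427756-34427778 (codon 541). Recql and Blm were the closest pair, with 29 of 36 bases identical, and Recql5 and Wrn the most distant, with 23 of 36.

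Per kilobase of annotated exon, Blm had the highest median of the RecQ mRNAs in both experiments. This scale is approximate, because the annotation and strand used in counting are not given. Of the Recql exon, 38.5% is shared with Pyroxd1 on the opposite strand. In the Myc experiment the median over 12 libraries was 9.418 CPM per kb for Blm (7.357 to 10.17), 4.473 for Recql4 (3.208 to 8.214), 3.382 for Wrn (2.481 to 4.154), 1.89 for Recql5 (1.518 to 2.3) and 1.782 for Recql (1.347 to 2.258). The ranges of neighbours in this order overlapped, except for those of Wrn and Recql5. Over the 8 libraries of the HU experiment the median was 10.66 CPM per kb for Blm (7.882 to 11.51) and 8.127 for Recql4 (5.121 to 10.38). There Recql had a median of 3.17, Wrn of 2.341 and Recql5 of 1.588 CPM per kb, and a single WT vehicle library took Wrn up to 5.615. The tables were made separately, so levels of the 2 experiments were not tested against each other.

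**Figure D1:**
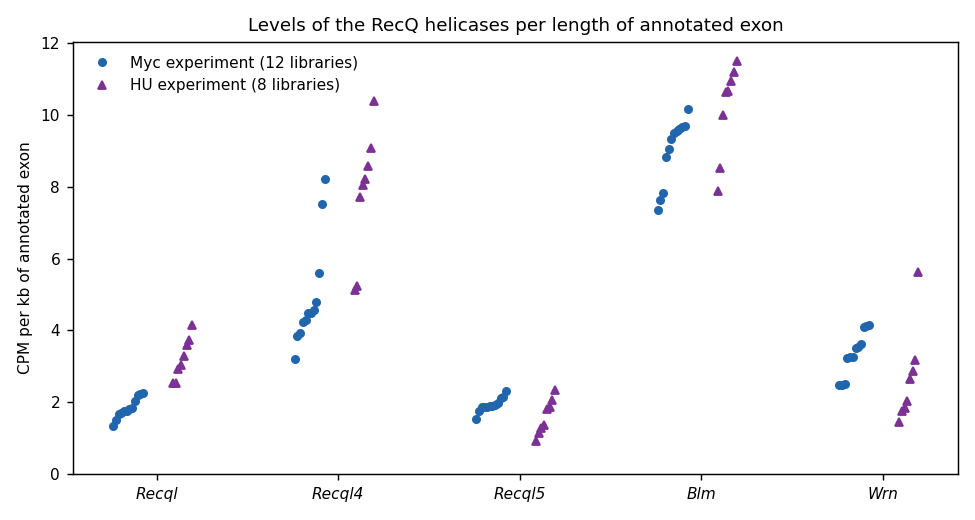
Level of each RecQ mRNA per kilobase of exon, in TMM-scaled CPM per kb on a linear axis from 0, with 1 point per library for the 12 libraries of the Myc experiment (circles) and the 8 of the HU experiment (triangles), ordered by value within a gene. Blm sits highest in both, with medians of 9.418 and 10.66 CPM per kb, and Recql4 spreads from 3.208 to 10.38.

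The first question was what loss of Trim33 did to these genes in cells with the Ctrl vector. Recql4 fell in both knockout lines, and Blm rose in both. Recql5 fell past the threshold in KO2, though not in KO1, and Recql and Wrn lay higher in both lines without passing it. A gene was called at an adjusted p below 0.01 in the Myc experiment, by edgeR's quasi-likelihood test adjusted over all genes. By that rule 2 of 5 members were called in KO1 Ctrl against WT Ctrl, where 52.2% of all genes were called, and 3 of 5 in KO2 Ctrl against WT Ctrl, where 49.9% were. The share of members called was thus near that of all genes in both. The libraries of the compared groups did not overlap for any member in either comparison, as was so for 83.9% and 82.1% of all genes. All 5 had an unadjusted p below 0.05 in both, beside 66.5% and 64.9% of all genes. The comparisons share the WT Ctrl libraries, so they do not stand as separate evidence.

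Recql4 (chr15:76533984-76540963 in mm9), known for its part in assembling the replicative helicase at origins, was at 30.5 and 33.2 CPM in WT Ctrl, from 431 and 486 counts. It was at 13.0 and 15.6 CPM in KO1 Ctrl and at 19.3 and 15.9 CPM in KO2 Ctrl. All 4 knockout libraries therefore lay far under both WT Ctrl libraries. Mean levels were 31.8 ± 1.96 CPM (SD, n = 2), 14.3 ± 1.84 and 17.6 ± 2.45. The log2 fold change was −1.16 in KO1 (SE 0.123, 95% interval −1.42 to −0.90, adjusted p = 5.21e-07), which is 2.23-fold lower. In KO2 it was −0.86 (SE 0.119, −1.11 to −0.60, adjusted p = 1.17e-05), 1.81-fold lower. It remained past the threshold without any 1 of the libraries, at −1.29 to −1.03 in KO1 and −1.0 to −0.72 in KO2. KO2 against KO1 gave 0.30 (SE 0.132, adjusted p = 0.101), and the groups did not overlap, as for 69.9% of all genes.

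Blm (chr7:87599879-87680005), the helicase that separates joined molecules, was at 36.4 and 37.8 CPM in WT Ctrl. It was at 44.7 and 47.9 CPM in KO1 Ctrl and at 47.3 and 50.3 CPM in KO2 Ctrl, so that all 4 knockout libraries lay above both WT Ctrl libraries. The change was small, a log2 fold change of 0.32 in KO1 (SE 0.0903, 0.13 to 0.51, adjusted p = 0.00558), or 1.25-fold. In KO2 it was 0.40 (SE 0.0898, 0.20 to 0.59, adjusted p = 0.00119), or 1.31-fold. In KO1 the call was lost without any 1 of the 4 libraries compared (0.27 to 0.37, adjusted p = 0.0122 to 0.0578). In KO2 it was lost without WT Ctrl replicate 1 (0.37, adjusted p = 0.0158) or KO2 Ctrl replicate 2 (0.35, adjusted p = 0.0174).

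Wrn (chr8:34344856-34495999), the member with an exonuclease, was at 15.9 and 16.1 CPM in WT Ctrl. It was at 20.8 and 22.7 CPM in KO1 Ctrl and at 20.9 and 22.4 CPM in KO2 Ctrl. All 4 knockout libraries lay higher, but the log2 fold changes of 0.44 (SE 0.166, adjusted p = 0.0293) and 0.44 (SE 0.166, adjusted p = 0.0318) missed the threshold of 0.01. Fitted on the compared groups alone, both passed, at 0.45 with adjusted p = 0.000382 in KO1 and 0.000226 in KO2.

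Recql (chr6:142298862-142335607), the fork restart helicase, was at 12.8 and 13.6 CPM in WT Ctrl, at 15.3 and 17.0 CPM in KO1 Ctrl and at 16.8 and 16.5 CPM in KO2 Ctrl. Both knockout groups again lay above WT Ctrl without overlap. The log2 fold change was 0.29 in KO1 (SE 0.123, 0.03 to 0.55, adjusted p = 0.0503) and 0.33 in KO2 (SE 0.122, adjusted p = 0.0268), neither of which was called. On the compared groups alone the KO2 value was 0.35 and passed (adjusted p = 0.0058).

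Recql5 (chr11:115753909-115794791), the partner of RNA polymerase II, went the other way. It was at 15.0 and 16.1 CPM in WT Ctrl, at 13.0 and 13.3 CPM in KO1 Ctrl and at 12.2 and 10.6 CPM in KO2 Ctrl. The groups did not overlap. In KO2 it fell 1.36-fold (log2 −0.45, SE 0.109, −0.68 to −0.22, adjusted p = 0.0021), while the KO1 value of −0.24 (SE 0.107, adjusted p = 0.0631) did not pass. The KO2 call was lost without WT Ctrl replicate 2 (−0.40, adjusted p = 0.0242), without KO2 Ctrl replicate 2 (−0.35, adjusted p = 0.0372) and with DESeq2 (−0.44, adjusted p = 0.0124).

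Between the knockout lines themselves, KO2 Ctrl against KO1 Ctrl, 18.3% of all genes were called and 0 of 5 members. At an unadjusted p below 0.05 there was 1 member, Recql4, beside 39.2% of all genes, and DESeq2 called 0 members.

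**Figure D2:**
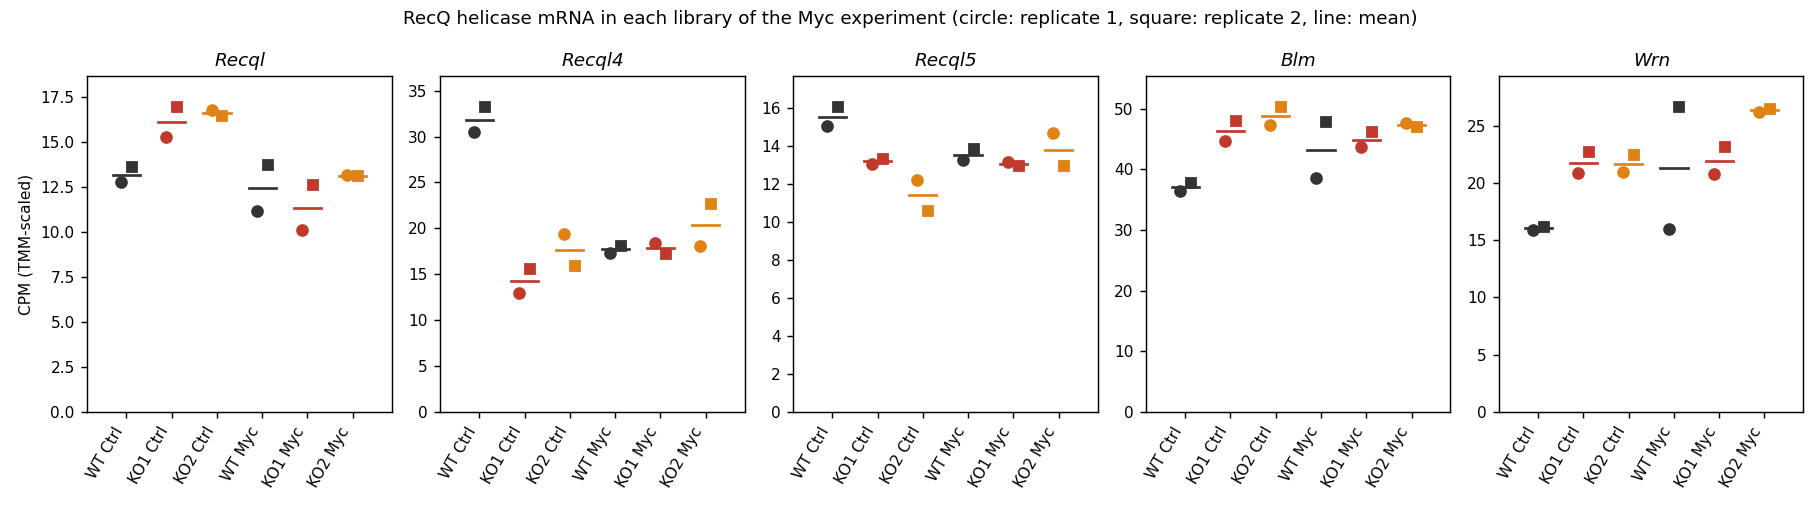
TMM-scaled CPM of each RecQ gene in the 12 libraries of the Myc experiment, 1 panel per gene with a linear axis from 0, 1 point per library and a bar at each group mean. Recql4 is highest in WT Ctrl (30.5 and 33.2 CPM) and lowest in KO1 Ctrl (13.0 and 15.6 CPM), and the libraries labelled WT Myc lie far apart for Wrn (15.9 and 26.6 CPM).

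The next question was what the Myc vector did in each line, as labelled. Recql4 fell in the libraries labelled WT Myc to the range it had in the knockout lines. Among the libraries with the Myc vector, those labelled WT and knockout overlapped. Recql fell in the libraries labelled KO1 Myc. No other member passed the threshold in any line.

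Recql4 was at 17.3 and 18.1 CPM in the libraries labelled WT Myc, below both WT Ctrl libraries (no overlap for 75.2% of all genes). The log2 fold change was −0.85 (SE 0.118, −1.10 to −0.60, adjusted p = 1.69e-05), 1.80-fold lower, and without any 1 library it was −0.91 to −0.78 and still called. It was the only member of 5 called in that comparison, where 44.3% of all genes were. The libraries labelled KO1 Myc held 18.4 and 17.2 CPM, above both KO1 Ctrl libraries (no overlap for 76.1% of all genes). That change was not called (log2 0.32, adjusted p = 0.0536). The libraries labelled KO2 Myc held 18.1 and 22.6 CPM and overlapped KO2 Ctrl (0.21, adjusted p = 0.164). The change with Myc in KO1 minus that in WT was 1.16 on the log2 scale (SE 0.176, 0.79 to 1.54, adjusted p = 4.62e-05). For KO2 it was 1.06 (SE 0.171, 0.70 to 1.42, adjusted p = 0.000103). Recql4 was the only member of 5 called in these differences, against 37.3% of all genes for KO1 and 32.8% for KO2, and both differences share the WT Ctrl and labelled WT Myc libraries. Both stayed past the threshold without any 1 library, at 1.04 to 1.30 and 0.89 to 1.21.

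Set directly against the libraries labelled WT Myc, Recql4 gave 0.01 for KO1 Myc (95% interval −0.26 to 0.27, adjusted p = 0.969) and 0.20 for KO2 Myc (−0.06 to 0.46, adjusted p = 0.183). At an unadjusted p below 0.05 there were 0 members in these comparisons, beside 47.0% and 55.0% of all genes. In them 25.1% and 35.2% of all genes were called and 0 of 5 members, with 0 by DESeq2. Leaving out a library labelled WT Myc changed that. Without replicate 2, Wrn was called against KO1 Myc (0.46, adjusted p = 0.00208) and against KO2 Myc (0.72, adjusted p = 7.51e-06), and Blm against KO2 Myc (0.29, adjusted p = 0.00525).

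Recql was at 10.1 and 12.6 CPM in the libraries labelled KO1 Myc, both below the KO1 Ctrl libraries (no overlap for 76.1% of all genes). As labelled it fell 1.42-fold (log2 −0.51, SE 0.123, −0.77 to −0.25, adjusted p = 0.0027) and was the only member of 5 called, where 36.1% of all genes were. The call was lost without KO1 Ctrl replicate 2 (−0.43, adjusted p = 0.0387) or KO1 Myc replicate 1 (−0.34, adjusted p = 0.0691). In the libraries labelled KO2 Myc it was at 13.2 and 13.1 CPM, below both KO2 Ctrl libraries (no overlap for 77.5% of all genes). The log2 fold change there was −0.34 (SE 0.119, adjusted p = 0.0248). On the compared groups alone the latter passed (−0.35, adjusted p = 0.00706). Otherwise edgeR called 0 of 5 members in KO2 Myc against KO2 Ctrl, beside 38.8% of all genes, and DESeq2 called 0. There were 2 members at an unadjusted p below 0.05, beside 57.0% of all genes. In the libraries labelled WT Myc, Recql was at 11.2 and 13.7 CPM and overlapped WT Ctrl (−0.08, adjusted p = 0.617).

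Blm and Wrn depended on which library labelled WT Myc was kept. Blm was at 38.6 CPM in replicate 1 and 47.7 CPM in replicate 2, and Wrn at 15.9 and 26.6 CPM. Against WT Ctrl the log2 fold changes were 0.22 (adjusted p = 0.0462) and 0.42 (adjusted p = 0.04), and neither was called. Without replicate 1 they were 0.36 (adjusted p = 0.000689) and 0.73 (adjusted p = 3.41e-06), while without replicate 2 the Wrn value was −0.0073. Without replicate 1 the differences in the Myc response were also called for Blm, at −0.41 in both lines (adjusted p = 0.00245 and 0.0025), and for Wrn, at −0.72 in KO1 (adjusted p = 0.000107) and −0.45 in KO2 (adjusted p = 0.00794), and for Recql in KO1, at −0.57 (adjusted p = 0.00968). Wrn was otherwise at 20.8 and 23.1 CPM under the label KO1 Myc and at 26.2 and 26.4 CPM under the label KO2 Myc, the latter above every other group except 1 library labelled WT Myc. Blm was at 43.6 and 46.2 CPM and at 47.6 and 47.0 CPM in these groups, with log2 fold changes of −0.05 against the Ctrl group of the same name in both lines.

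Under the Myc vector Recql5 was at 13.3 and 13.8 CPM in the labelled WT libraries, at 13.1 and 13.0 CPM in the labelled KO1 libraries and at 14.7 and 12.9 CPM in the labelled KO2 libraries. All 6 lay within 12.9 to 14.7 CPM, whatever the label. The log2 fold change against the Ctrl group of the same name was −0.20 in WT (adjusted p = 0.122), −0.01 in KO1 and 0.27 in KO2 (adjusted p = 0.0442), none of them called.

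**Figure D3:**
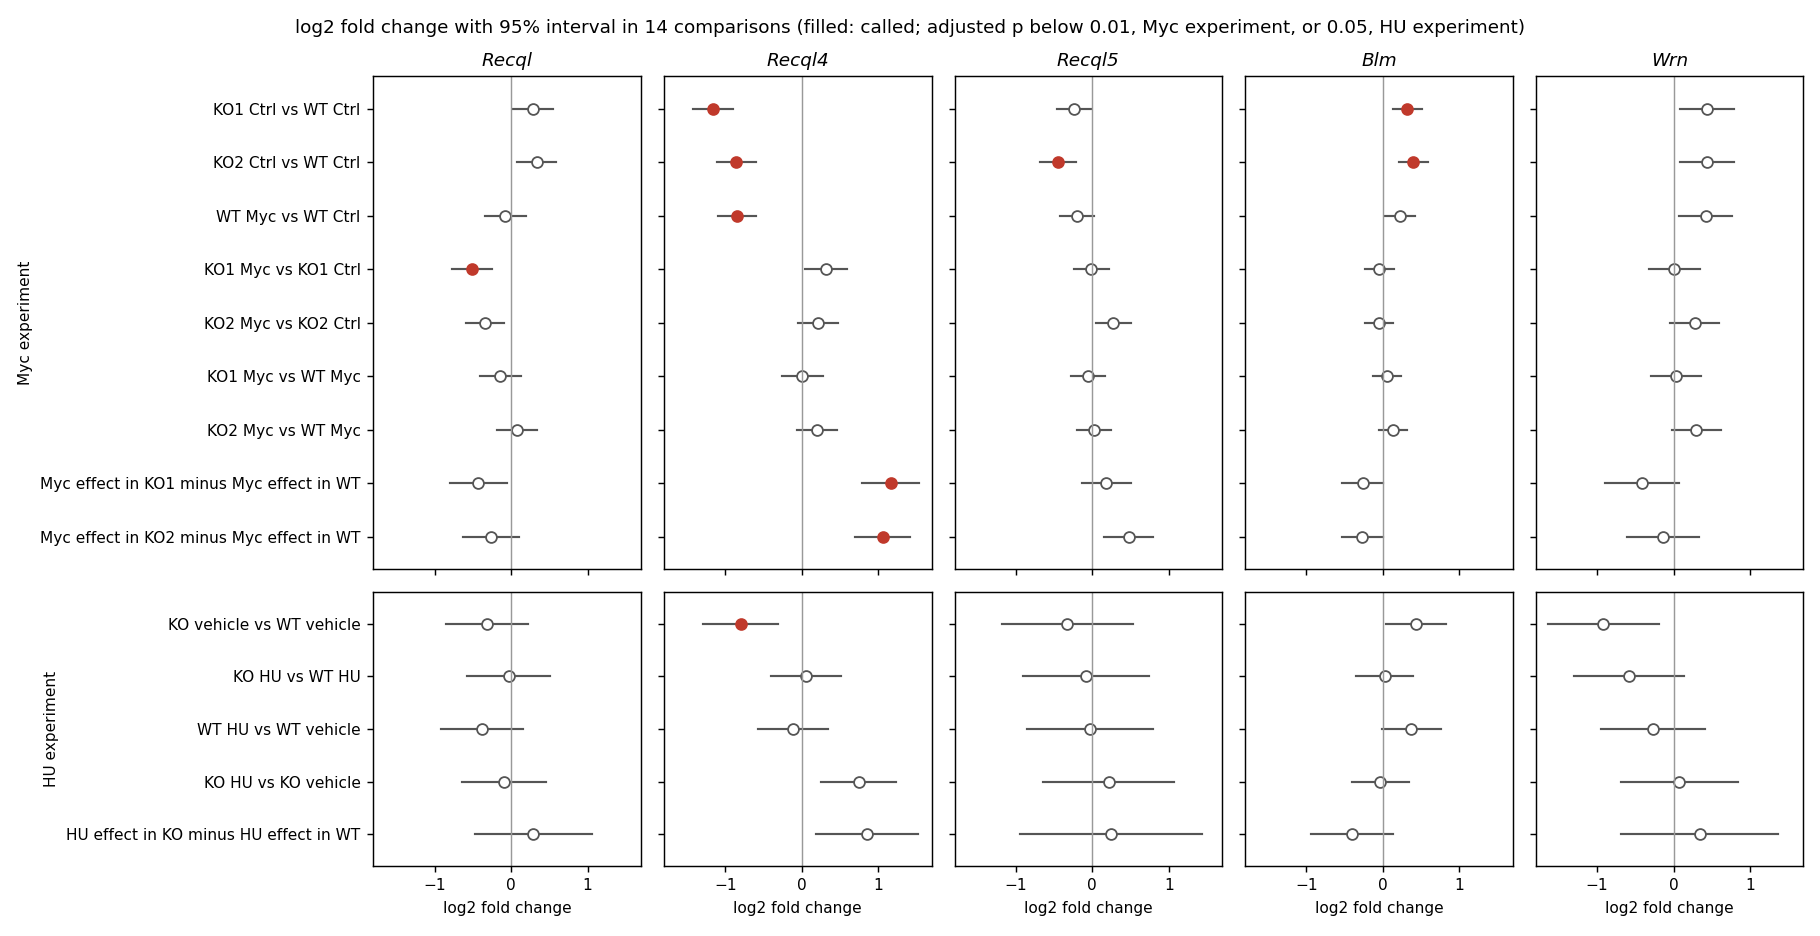
Log2 fold change of each RecQ gene in the comparisons of the 2 experiments other than KO2 Ctrl against KO1 Ctrl, with 95% intervals from the quasi-likelihood fit and a line at 0. Filled points passed the adjusted threshold (0.01 in the Myc experiment, 0.05 in the HU experiment). The intervals of Recql4 lie below 0 in KO1 Ctrl, KO2 Ctrl and WT Myc against WT Ctrl and above 0 for the differences in Myc response.

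The HU experiment asked how stalled forks changed these mRNAs and repeated the comparison of knockout with WT cells at lower depth, with a threshold of 0.05. Recql4 was lower in untreated KO cells than in untreated WT cells. With HU its levels in KO and WT cells overlapped, and HU itself moved no member past the threshold in the fit without a replicate block. Each member had 19 to 174 counts per library, and the biological coefficient of variation was 0.102, beside 0.0498 in the Myc experiment.

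Recql4 was at 42.0 and 31.2 CPM in WT vehicle, from 98 and 83 counts. It was at 21.1 and 20.7 CPM in KO vehicle, from 52 and 62 counts. Both lay below the WT libraries, in a comparison where 50.1% of all genes did not overlap. Recql4 fell 1.74-fold (log2 −0.80, SE 0.244, −1.29 to −0.31, adjusted p = 0.0217), the only 1 of 5 members called where 12% of all genes were. The call was lost without WT vehicle replicate 1 (−0.58, adjusted p = 0.233), KO vehicle replicate 1 (−0.83, adjusted p = 0.0674) or KO vehicle replicate 2 (−0.78, adjusted p = 0.11), and with DESeq2 (−0.80, adjusted p = 0.0711), which called 0 members.

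With HU, Recql4 was at 34.7 and 32.6 CPM in WT cells and at 36.8 and 33.2 CPM in KO cells. The 4 HU libraries overlapped, and KO HU against WT HU gave 0.06 (95% interval −0.40 to 0.51, adjusted p = 0.904). Within the KO cells the HU libraries lay above both vehicle libraries (no overlap for 45.1% of all genes). The log2 fold change was 0.74 (SE 0.243, 0.26 to 1.23) and just missed the threshold (adjusted p = 0.0509). With the replicate number as a block it passed (0.73, adjusted p = 0.0473), although the numbers did not pair the libraries. Within the WT cells it was −0.12 (adjusted p = 0.835), and those groups overlapped. The change with HU in KO minus that in WT was 0.86 (SE 0.334, 0.19 to 1.53), with an unadjusted p of 0.0126 that did not hold over all genes (adjusted p = 0.822).

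Blm was at 39.0 and 42.1 CPM in WT vehicle and at 56.9 and 52.8 CPM in KO vehicle. The KO libraries lay above both WT libraries (no overlap for 50.1% of all genes). The log2 fold change of 0.43 (SE 0.194, 0.04 to 0.82, adjusted p = 0.148) was not called. With HU, Blm was at 55.4 and 49.5 CPM in WT cells and at 52.7 and 54.1 CPM in KO cells. The WT HU libraries lay above the WT vehicle libraries (0.37, −0.01 to 0.76, adjusted p = 0.257), as 51.0% of all genes did not overlap there. WT vehicle was thus the lowest of the 4 groups without overlap.

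Wrn was at 36.0 and 11.3 CPM in WT vehicle, from 84 and 30 counts, a spread wider than any difference between groups. It was at 13.0 and 11.7 CPM in KO vehicle, 20.4 and 18.4 CPM in WT HU and 9.19 and 17.0 CPM in KO HU. KO vehicle against WT vehicle gave −0.92 (SE 0.362, adjusted p = 0.0888). Without WT vehicle replicate 2 it was −1.55 and called (adjusted p = 0.00291), and without replicate 1 it was 0.12, so the value rested on 1 library.

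Recql was at 27.0 and 31.2 CPM in WT vehicle, 28.1 and 19.0 CPM in KO vehicle, 22.0 and 22.9 CPM in WT HU and 24.7 and 19.0 CPM in KO HU. Recql5 was at 16.3 and 7.89 CPM, 13.0 and 6.35 CPM, 14.3 and 9.00 CPM, and 9.54 and 12.6 CPM in the same order. The 4 groups of Recql5 overlapped. Recql had a mean of 23.5 CPM in KO vehicle and 29.1 CPM in WT vehicle, with overlapping libraries, and was not called. Recql and Wrn thus lay lower in KO vehicle, though both lay higher in KO1 Ctrl and KO2 Ctrl. Only 1 of 5 members, Blm, had a positive log2 fold change in KO vehicle against WT vehicle (median −0.33). In KO1 Ctrl and KO2 Ctrl against WT Ctrl 3 of 5 did. Recql was not called in WT HU against WT vehicle (−0.38), though its groups did not overlap, as for 51.0% of all genes. Wrn did not overlap in KO HU against WT HU (−0.58, adjusted p = 0.339), as for 55.4% of all genes.

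Across the remaining comparisons of the HU experiment edgeR called 0 of 5 members. KO HU against WT HU called 11.0% of all genes and WT HU against WT vehicle 9.83%. Each had 0 members at an unadjusted p below 0.05, beside 24.2% and 21.5% of all genes. KO HU against KO vehicle called 6.45% and the difference in HU response 0.0714%. Each had 1 member, Recql4, at an unadjusted p below 0.05, beside 17.5% and 5.37% of all genes. DESeq2 called 0 members in all 4. Over both experiments, 10 of the 75 values of a member in a comparison were called, 6 of them of Recql4 and 9 in the Myc experiment. In the same comparisons 0.0714% to 52.2% of all genes were called. The share of members called was above that of all genes only in KO2 Ctrl against WT Ctrl and KO vehicle against WT vehicle. In every other comparison it was below, so the count does not set the members apart from genes at large.

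**Figure D4:**
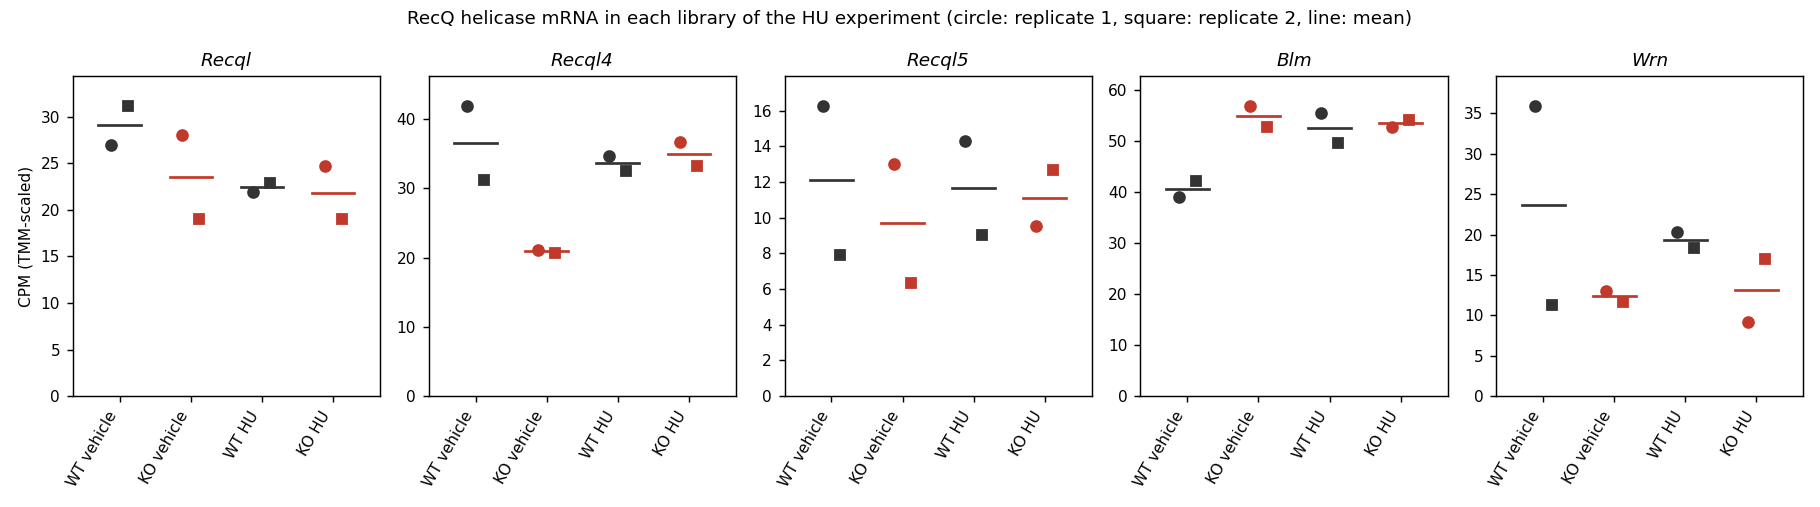
TMM-scaled CPM of each RecQ gene in the 8 libraries of the HU experiment, 1 panel per gene with a linear axis from 0, 1 point per library and a bar at each group mean. Recql4 is lowest in KO vehicle (21.1 and 20.7 CPM), Blm is lowest in WT vehicle (39.0 and 42.1 CPM), and the WT vehicle libraries lie far apart for Wrn (36.0 and 11.3 CPM).

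The proteins that work with RecQ helicases were described as a list of 22 genes, all of them tested. In KO1 Ctrl against WT Ctrl 13 rose, 2 fell and 7 were not called, so 68.2% were called beside 52.2% of all genes, and the median log2 fold change was 0.45 beside −0.0036. In KO2 Ctrl 16 rose and 4 fell, or 90.9% beside 49.9% of all genes, with a median of 0.59 beside −0.011. The 13 that rose in KO1 also rose in KO2, and both that fell in KO1 fell in KO2. In the libraries labelled WT Myc 13 rose and 0 fell, or 59.1% beside 44.3% of all genes (median 0.43), while Recql4 fell there. The differences in Myc response had medians of −0.22 for KO1, with 0 called higher and 8 lower (36.4% beside 37.3% of all genes), and −0.43 for KO2, with 2 higher and 12 lower (63.6% beside 32.8%). In the HU experiment at most 1 of the 22, or 4.55%, was called in any comparison, beside 6.45% to 12% of all genes and 0.0714% for the difference in HU response. The median log2 fold change of the list in KO vehicle against WT vehicle was −0.032, so the rise seen with the Ctrl vector was not repeated there.

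Of the complex that works with Blm, Rmi1, which stabilises it, rose in KO1 (log2 0.46, adjusted p = 0.000168) and KO2 (0.61, adjusted p = 9.11e-06). Rmi2, its small partner, rose by 1.26 and 1.53 on the log2 scale from 2.33 CPM. The topoisomerase Top3a rose in KO2 (0.33, adjusted p = 0.00375), and its KO1 value of 0.20 (adjusted p = 0.0667) was not called. Dna2, a nuclease that resects DNA ends with Blm or Wrn, had the largest change of the partners named here, from 3.13 CPM in WT Ctrl to 14.6 in KO1 Ctrl and 12.9 in KO2 Ctrl (log2 2.22 and 2.04, adjusted p = 1.24e-08 and 5.11e-08). It was at 9.20 CPM in the libraries labelled WT Myc, and at 23.4 to 29.6 CPM in the 4 groups of the HU experiment, where none of these 4 genes was called. In KO vehicle against WT vehicle the log2 fold changes were −0.47 for Rmi1, −0.75 for Rmi2, 0.22 for Top3a and −0.23 for Dna2.

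Other helicases and remodellers of forks, 18 of 19 tested, showed 11 higher and 1 lower in KO1 Ctrl (66.7% called beside 52.2% of all genes, median 0.51) and 11 higher and 2 lower in KO2 Ctrl (72.2% beside 49.9%, median 0.48). Among them the DNA translocases Rad54b (1.44 and 1.53) and Rad54l (1.26 and 1.38) and the helicase Brip1 (1.07 and 1.15) rose in both lines. Genes that remove R-loops, RNA-DNA hybrids that block forks, showed 3 of 10 higher and 5 lower in KO1 Ctrl (8 of 10 called beside 52.2%, median −0.19) and 3 higher and 3 lower in KO2 Ctrl (6 of 10 beside 49.9%, median −0.11). The RecQ genes themselves had medians of 0.29 and 0.33. Lists of this kind had been made with earlier results of these data known, so their counts are a description.

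Some reads of these genes may belong to neighbours, because the strand used in counting is not given in the sources used here. Recql shares 2895 bp, or 38.5% of its 7510 bp of exon, with Pyroxd1 on the opposite strand. Recql4 shares 421 bp, or 10.4% of 4045 bp, with Mfsd3, and Recql5 shares 196 bp, or 2.81% of 6986 bp, with Sap30bp and 9 bp with Myo15b. Pyroxd1, a redox enzyme gene, moved against Recql in the knockout lines, falling in KO1 Ctrl (log2 −0.66, adjusted p = 6.97e-05) and KO2 Ctrl (−0.61, adjusted p = 0.000149). It moved with Recql in the libraries labelled KO1 Myc (−0.51, adjusted p = 0.00274). Mfsd3 had −0.48 (adjusted p = 0.0345) and −0.23 (adjusted p = 0.284) in the knockout lines and 0.45 (adjusted p = 0.0271) in the libraries labelled WT Myc, where Recql4 fell. Sap30bp had −0.03 and 0.05 in the knockout lines. The part of shared reads in the values of Recql, Recql4 and Recql5 was not tested.

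The starts of Recql and Golt1b, which faces away from it, are separated by 133 bases (chr6:142335608-142335740, mm9, minus strand), 64.7% of them G or C, with 12 CpG sites in capitals. The stretch is shown because Golt1b, a gene of Golgi transport, fell in both knockout lines while Recql lay higher.
Recql-Golt1b: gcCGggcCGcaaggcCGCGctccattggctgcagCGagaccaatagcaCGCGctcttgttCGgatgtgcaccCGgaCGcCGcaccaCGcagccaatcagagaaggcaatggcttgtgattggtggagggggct
Golt1b changed by −0.28 in KO1 Ctrl (adjusted p = 0.00107), by −0.21 in KO2 Ctrl (adjusted p = 0.00719) and by −0.29 in the libraries labelled WT Myc (adjusted p = 0.000946). Lrrc14, which starts 90 bp from Recql4 on the other strand, changed by −0.36 (adjusted p = 0.0115, not called) and −0.44 (adjusted p = 0.00315) in the knockout lines and by −0.02 in the libraries labelled WT Myc. The mRNA of E2f4, a transcription factor that can repress or activate cell-cycle genes, had −0.07 and −0.06 in the knockout lines (adjusted p = 0.368 and 0.501). The paper reports that loss of Trim33 made the E2f4 protein more stable, which mRNA levels do not measure. Recql4 and Wrn had no promoter window in the set used and were not searched. RefSeq promoter windows of 300 bases (GRCm38.p6) were matched for Recql, Recql5 and Blm. They held none of the searched letters on either strand, which were the E2F forms TTTCGCGC, TTTGGCGC and TTTCCCGC (any of the 3 in 1.84% of 32851 windows), the E-box CACGTG (7.15%) and the CHR TTTGAA (17.9%). Other forms of these sites were not searched, so the search cannot show that such sites are absent.

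Each member's pattern over the 12 libraries of the Myc experiment was also compared with 9288 genes of at least 10 CPM on average. Those most alike by Pearson's r were Glce (0.94), Snx16 and Pitpnb for Recql4, Adgra3 (0.97), Polr2b and Brip1 for Blm, and Cfap97 (0.96), Svil and Fancd2 for Wrn. For Recql they were Ccnyl1 (0.94), Golm1 and Cpd, and for Recql5 Xist (0.93), D1Ertd448e and Dph1. The points share groups and libraries, and over the 8 libraries of the HU experiment the same r was 0.68 for Glce with Recql4, −0.39 for Adgra3 with Blm, 0.02 for Cfap97 with Wrn, −0.14 for Ccnyl1 with Recql and 0.08 for Xist with Recql5.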

How the data were processed

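RNA-seq was done on total RNA of p19/Nras cells with, per the labels, the NEBNext Ultra II kit. The authors deposited whole-number read counts per gene, not normalized as far as their values show. Their name for the counts of the Myc experiment nevertheless holds "Norm". Those counts were fitted as raw counts, and whether they had been normalized before deposit was not tested. Per the submitters' processing notes, bcl2fastq 2.20, FastQC 0.11.5, STAR 2.5.4, edgeR 3.26.8 and the mm9 build were used. The counting tool, its annotation and its strand setting are not given in the sources used here. Columns with the authors' own comparisons (fold changes, p-values) were not used.

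Counts of each experiment were fitted alone in R 4.3.3 (limma 3.58.1, edgeR 4.0.16), with TMM scaling, 1 coefficient per group, the quasi-likelihood test and Benjamini-Hochberg adjustment over all genes, at 0.01 (Myc) and 0.05 (HU). Rows without a gene symbol numbered 298 and 168 and stayed in the fit. The filter was filterByExpr. A fit with no filter was also run and repeated the main fit, as the filter removed 0 genes. Alternatives were RLE scaling, at least 5 CPM in every library, DESeq2 1.42.0, the compared groups alone, a replicate block, a log2 fold change of at least 1, counts divided by 2 and leaving out each library. The code was tested on simulated data. Counts of 1 to 50 were even in 48.4% of cases in the Myc table and in 71.9% in the HU table, and the reason was not tested. Counts divided by 2 changed no count of called members by over 1.5 times. Exon lengths, positions and overlaps came from GENCODE M1 (mm9), promoters from RefSeq. All 5 members are reported. Named genes were Top3a, Rmi1, Rmi2 and Dna2 of the partner list and Rad54b, Rad54l and Brip1 of the list of other helicases. Members, lists and tests were chosen with earlier results of these data known. Members' neighbours were those overlapping or next to each gene. Depth sets the precision, and SEs come from the fit.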

Additional observations from a re-analysis of the deposited data

Results flagged for a closer look

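For Recql4 the change with the Myc vector differed between lines by a direct test, the interaction term of the edgeR fit. The change in KO1 minus that in WT was 1.16 on the log2 scale (adjusted p = 4.62e-05), and the change in KO2 minus that in WT was 1.06 (adjusted p = 0.000103). In WT the change was −0.85, and in KO1 and KO2 it was 0.32 and 0.21. Both differences use the WT Ctrl libraries and the libraries labelled WT Myc, whose Trim33 mRNA (131 and 155 CPM) was below that of WT Ctrl (246 and 258 CPM), and whose own spread was 11.1 times the counting noise. Myc mRNA had a log2 fold change of 0.07 in the libraries labelled WT Myc (adjusted p = 0.31), beside 1.73 and 1.16 in those labelled KO1 Myc and KO2 Myc. The labels of the Myc vector libraries, or those of KO1 Ctrl and KO2 Ctrl, may be exchanged. The part of these in the differences was not tested.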

How the results depend on the processing

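Of the alternatives, requiring a log2 fold change of at least 1 as well left 1 called member in KO1 Ctrl against WT Ctrl and 0 in KO2 Ctrl against WT Ctrl, WT Myc against WT Ctrl, KO1 Myc against KO1 Ctrl and KO vehicle against WT vehicle. The compared groups alone gave 5 called members in KO2 Ctrl against WT Ctrl and 1 in KO2 Myc against KO2 Ctrl. DESeq2 gave 0 in KO vehicle against WT vehicle. The replicate numbers did not pair the libraries (correlations of −0.148 to 0.192 over 15 pairs of groups in the Myc experiment and −0.0136 to 0.0510 over 6 in the HU experiment), and the replicate block gave 1 called member in KO HU against KO vehicle, Recql4, at 0.73 (adjusted p = 0.0473), and moved no other count of called members by over 1.5 times. Leaving out 1 library gave 1 to 1 called members in KO1 Ctrl, 1 to 3 in KO2 Ctrl and 1 to 3 in WT Myc, each against WT Ctrl, 0 to 1 in KO1 Myc against KO1 Ctrl, 0 to 1 in KO1 Myc and 0 to 2 in KO2 Myc against WT Myc, 1 to 4 and 1 to 3 for the differences in Myc response in KO1 and KO2, and 0 to 2 in KO vehicle against WT vehicle. The Recql4 calls in KO1 Ctrl, KO2 Ctrl, WT Myc and both differences kept an adjusted p past the threshold in all 58 alternative fits of these 5 values. With a log2 fold change of at least 1 as well, those in KO2 Ctrl and WT Myc were lost, being under 1 in size. All 5 Recql4 values use the same WT Ctrl libraries (30.5 and 33.2 CPM), so they do not stand as separate evidence. Every other library of the Myc experiment lay at 13.0 to 22.6 CPM. The 58 fits include those with no filter, which repeat the main fit. Over all genes, adding the fold limit cut the called genes to 654 to 2090 from 2398 to 6842 in the Myc experiment and to 2 to 411 from 8 to 1349 in the HU experiment. In KO2 Ctrl against KO1 Ctrl the 5 CPM filter gave 1585 called genes and the compared groups alone 4029, against 2398. The compared groups alone also gave 1541 instead of 3291 and 2775 instead of 4614 for KO1 Myc and KO2 Myc against WT Myc, and 1893 instead of 1233 for KO HU against WT HU. DESeq2 gave 751, 736, 727, 456 and 5 called genes in the HU experiment, where edgeR gave 1349, 1233, 1102, 723 and 8 (KO vehicle and KO HU against WT, HU in WT and in KO, and the difference in HU response). Leaving out 1 library moved such counts by over 1.5 times in KO2 Ctrl against KO1 Ctrl (1383 to 1475), in KO1 Myc against WT Myc (1906 to 4321) and in the HU comparisons (794 to 972, 518 to 680, 553 to 933, 389 to 542 and 0 to 20, in the same order).

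Wrn in KO2 Ctrl against KO1 Ctrl changed sign around 0, to 0.0038 with RLE scaling, 0.0034 with the 5 CPM filter, 0.0039 with DESeq2 and 0.0045 with the compared groups alone. Leaving out 1 library turned the sign of 32 values, 0 of them called. Their log2 ranges were −0.029 to 0.12 for Recql and −0.065 to 0.057 for Wrn in KO2 Ctrl against KO1 Ctrl, and −0.24 to 0.056 for Recql and −0.0073 to 0.73 for Wrn in WT Myc against WT Ctrl. In KO1 Myc against KO1 Ctrl they were −0.031 to 0.0018 for Recql5, −0.094 to 0.018 for Blm and −0.068 to 0.11 for Wrn. Against WT Myc, KO1 Myc gave −0.30 to 0.037 for Recql, −0.023 to 0.057 for Recql4, −0.089 to 0.22 for Blm and −0.28 to 0.46 for Wrn, and KO2 Myc gave −0.064 to 0.23 for Recql, −0.069 to 0.12 for Recql5, −0.015 to 0.29 for Blm and −0.017 to 0.72 for Wrn. The differences in Myc response of Wrn ran from −0.72 to 0.017 in KO1 and from −0.45 to 0.29 in KO2. In KO vehicle against WT vehicle they were −0.92 to 0.27 for Recql5 and −1.55 to 0.12 for Wrn, and in KO HU against WT HU −0.24 to 0.14 for Recql, −0.019 to 0.13 for Recql4, −0.37 to 0.29 for Recql5 and −0.052 to 0.11 for Blm. With HU in WT cells they were −0.33 to 0.098 for Recql4, −0.49 to 0.56 for Recql5 and −0.91 to 0.77 for Wrn, and in KO cells −0.36 to 0.21 for Recql, −0.24 to 0.80 for Recql5, −0.10 to 0.025 for Blm and −0.42 to 0.46 for Wrn. The difference in HU response ran from −0.34 to 0.85 for Recql5 and from −0.69 to 0.98 for Wrn. The cause was not tested.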

Other observations

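Pif1, named after its values were seen, is a helicase that clears unusual DNA structures and a member of the list of other fork helicases. It fell with HU by 1.95 on the log2 scale in WT cells (adjusted p = 2.92e-06) and by 2.00 in KO cells (adjusted p = 1.71e-06). No RecQ gene passed the threshold with HU in the fit without a replicate block. Myc mRNA fell in KO1 Ctrl and KO2 Ctrl against WT Ctrl, by 1.19 and 1.02 on the log2 scale.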
